A study of Homo sapiens with 15 samples.

Results

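U87MG libraries labelled as ID2 overexpression by lentivirus were compared with U87MG libraries labelled as GFP control lentivirus, both from cells harvested 24 h after the virus was added. U87MG is an established human glioblastoma line grown in serum. The 6 libraries compared, 3 labelled ID2 and 3 labelled GFP, were chosen by their labels from 15 libraries in all, and the remaining 9 carried the labels ID1, ID3 and ID4 with 3 libraries each. All groups were the same line, exposed to a lentivirus for the same time, and differed by label only in the sequence the vector was said to express. The libraries of a group are numbered 1 to 3 with no statement that they came from separate cultures, so p-values measure only the spread between these libraries, which may be technical. No statement was found on whether the virus-treated cells were selected, or on the promoter of the vector.

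The ID proteins are helix-loop-helix proteins that lack the basic region needed to bind DNA. They pair with the E proteins, which are transcription factors that bind E-box sequences, and the pair cannot bind DNA. In the nervous system and in glioma they are known for keeping progenitor-like cells from differentiating.

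Each library was a 3′ mRNA library, in which reads fall near the 3′ end of a transcript and are counted per gene. Totals ran from 13721726 to 14454067 counts in the ID2-labelled libraries and from 11949100 to 14198548 in the GFP libraries. Of 25737 listed entries, 12732 had a mean of 10 or more counts over the 6 libraries and were tested. Levels below are counts scaled to the effective library total (CPM), given as mean ± SD with n = 3, and fold changes are on the log2 scale from the edgeR quasi-likelihood fit, with p-values adjusted by Benjamini-Hochberg over all 12732 genes and called at 0.05. The 8 markers listed for mesenchymal-like glioma were all tested and summed to 10644 to 11332 CPM in GFP libraries and 19553 to 20662 CPM in ID2-labelled libraries, with 5 higher and 1 lower, and FN1 (fibronectin) made up most of the sum. The other lists were sparse: CD3E and TYROBP (immune), CDH5 (endothelial), KRT5 and KRT20 (epithelial), RBFOX3 and GRIN1 (neuronal) and AQP4 (astrocyte) had 0 counts in all 6 libraries, the immune sum of 49.9 to 56.4 CPM in GFP and 71.5 to 75.1 CPM in ID2-labelled libraries was nearly all CD68, a lysosomal protein gene, and GFAP was at most 0.338 CPM. The astrocyte sum of 17.9 to 19.4 CPM in GFP and 28.97 to 30.5 CPM in ID2-labelled libraries was nearly all SLC1A3, a glutamate transporter (log2 0.67). Of the neuronal and oligodendrocyte lists, SNAP25 ranged from 6.17 to 9.72 CPM in GFP and from 21.4 to 32.9 CPM in the ID2-labelled libraries and MBP from 4.41 to 5.17 CPM and from 0.634 to 0.978 CPM, and the part of such genes in the results was not tested.

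ID2 mRNA was lower, not higher, in the libraries labelled ID2. The ID2 gene (hg19 chr2:8818975-8824591, plus strand) had 1259, 1028 and 993 counts in GFP libraries 1 to 3 and 599, 647 and 668 counts in the ID2-labelled libraries. The level was 85.9 ± 2.05 CPM in GFP and 45.5 ± 1.42 CPM in the ID2-labelled libraries, and the groups did not overlap. The log2 fold change was -0.92 (SE 0.06, edgeR adjusted p = 3.02e-10), and an exact two-sided permutation test over the 3 and 3 libraries gave p = 0.1, the smallest that design allows. The level was close to that of the ID3-labelled libraries, 46.4 ± 2.10 CPM (log2 difference -0.03, edgeR adjusted p = 0.851), and was above the 34.1 ± 2.53 CPM of the ID1-labelled and the 36.0 ± 1.56 CPM of the ID4-labelled libraries (edgeR adjusted p = 0.000159 and 0.00133). Whether the introduced transcript carried the 3′ end that these libraries count is not given in the sources used here, so the ID2 count does not check the label. ID4 mRNA, at most 0.743 CPM in every other library, reached 212 to 236 CPM in the ID4-labelled libraries.

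**Figure D1:**
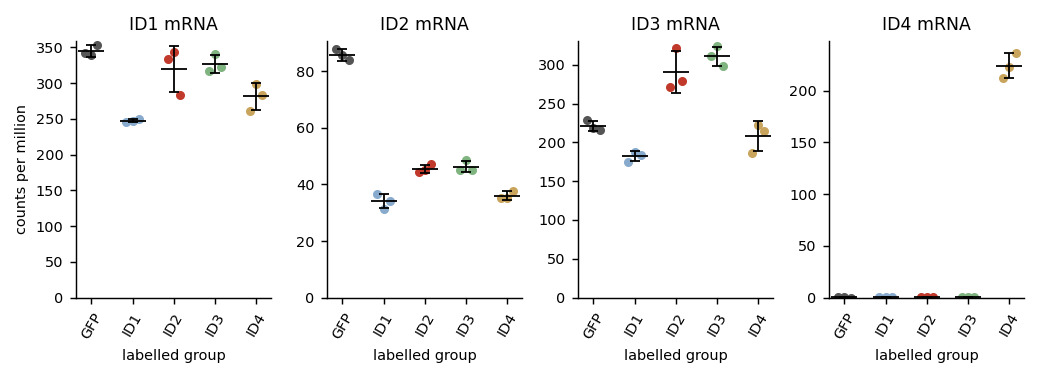
ID1, ID2, ID3 and ID4 mRNA in CPM for each of the 15 libraries, by labelled group; points are libraries, the bar and whiskers are mean and SD of 3. ID2 mRNA lay between 44.3 and 47.1 in the ID2-labelled libraries and between 83.9 and 88.04 in the GFP libraries, and ID4 mRNA was high in the ID4-labelled libraries alone.

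Among the other ID genes, ID3 was higher in the ID2-labelled libraries, at 272, 322 and 280 CPM against 228, 219 and 217 CPM in GFP. Its log2 fold change was 0.40 (SE 0.07, edgeR adjusted p = 7.57e-05). ID1 was 334, 343 and 284 CPM against 343, 339 and 354 CPM, a log2 fold change of -0.11 that was not called (edgeR adjusted p = 0.195). ID4 had too few counts to be tested. Of the E proteins, which ID proteins bind, TCF4 rose from 79.1 ± 1.07 to 114 ± 5.74 CPM (log2 0.53) and TCF12 rose by 0.62, while TCF3 fell by 0.21 on the log2 scale. None of these E protein changes, nor the rise of ID3, was particular to the ID2 label in the sense defined further on. ID3 mRNA was 311 ± 12.5 CPM in the ID3-labelled, 182 ± 6.36 CPM in the ID1-labelled and 208 ± 19.3 CPM in the ID4-labelled libraries.

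ID2-labelled library 3 stood apart from libraries 1 and 2, and the results that rest on it are given with and without it. For each library the log2 CPM of every tested gene was compared with the mean of the other 2 libraries of its group. In ID2 library 3 these deviations had an SD of 0.352 and 274 genes lay more than 1 log2 unit away, 215 of them below and 59 above. The other 14 libraries had SDs of 0.255 to 0.294 and 101 to 174 such genes. Among the 10546 genes with a mean of 50 or more counts the contrast was wider, with 102 genes below and 1 above in ID2 library 3 and at most 15 genes in all in any other library.

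Among the genes that were low in ID2 library 3, of which 3 are named here after their values were seen, was CRTC2, a coactivator of CREB, with 273, 220 and 14 counts in ID2 libraries 1 to 3 and 195, 128 and 259 counts in the GFP libraries. XPOT, the export receptor of tRNAs, had 450, 450 and 39 counts against 368, 137 and 422. SMN1, needed to assemble splicing particles, had 2608, 2752 and 412 counts against 2351, 1428 and 2680, and it has a near-identical copy, SMN2, with which it may share reads. In these 3 genes GFP library 2 was also the lowest of its group. Over the 215 genes as a whole, GFP library 2 was the lowest of its group for 133 genes, ID1 library 1 for 138, ID3 library 2 for 136 and ID4 library 3 for 144, with median deviations of -0.33, -0.28, -0.30 and -0.37 log2 units. The other 8 libraries were the lowest of their group for 28 to 47 of these genes. Of the 215 genes, 14 were called higher and 25 lower in the ID2 comparison and 4 were particular to the ID2 label, beside 18.5% higher, 17.1% lower and 5.35% particular among all tested genes.

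**Figure D2:**
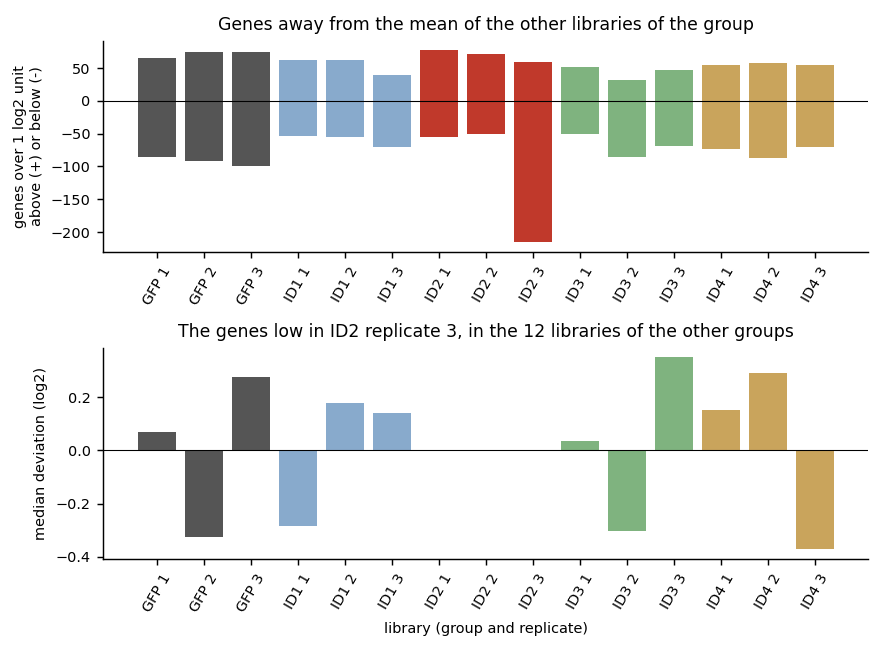
Top, number of tested genes more than 1 log2 unit above (positive) or below (negative) the mean of the other 2 libraries of the same group, for each of 15 libraries. Bottom, median deviation in log2 units of the 215 genes low in ID2 library 3, in the 12 libraries of the other groups; GFP 2, ID1 1, ID3 2 and ID4 3 lie between -0.37 and -0.28 and the other 8 above 0.

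The ID2-labelled and GFP libraries differed over a large part of the transcriptome, mostly by small amounts. Of the 12732 genes, 4535 were called (35.6%), 2357 higher (18.5%) and 2178 lower (17.1%) in the ID2-labelled libraries. The median size of a called change was 0.41 log2 units, 561 genes (4.41%) were called with a change of more than 1 log2 unit (358 higher, 2.81%, and 203 lower, 1.59%), and 116 passed 2 log2 units, 81 higher and 35 lower. The 3 and 3 libraries did not overlap for 5403 genes (42.4%), 2777 of them higher (21.8%) and 2626 lower (20.6%). In a fit on the 6 libraries alone 3668 genes were called, of which 3651 were among the 4535. Without ID2 library 3 the fit called 4421 genes and shared 3868 with the 4535. In bulk RNA a smaller number of cells expressing a gene and less of its RNA per cell cannot be told apart.

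**Figure D3:**
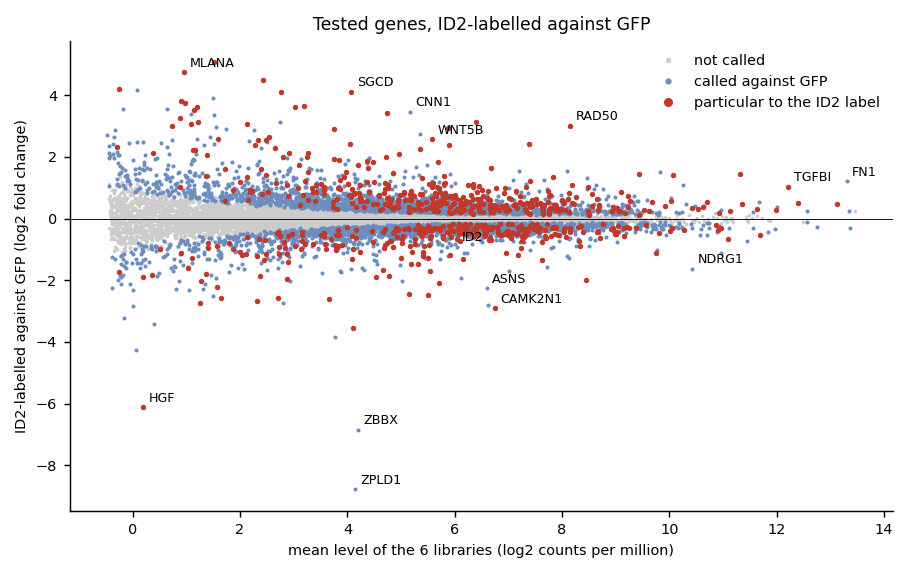
Log2 fold change of ID2-labelled against GFP libraries (vertical) by mean level of the 6 libraries in log2 CPM (horizontal) for 12732 tested genes; grey genes were not called, blue genes were called against GFP, red genes were particular to the ID2 label. The largest falls were those of ZPLD1, ZBBX and HGF, and RAD50 was the gene above 8 log2 CPM with a log2 rise of 3.01.

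The 12 steepest rises were those of UGT1A3, MLANA, GUCY1A2, PABPC4L, ROS1, SGCD, ITGB2, MYL9, ZNF268, ICAM5, GALNT9 and EMC10, and all but SGCD had at most 22 counts in any GFP library. SGCD, a sarcoglycan of the muscle membrane complex, had 28, 21 and 21 counts in GFP and 462, 507 and 368 counts in the ID2-labelled libraries, a log2 fold change of 4.11 (SE 0.17, edgeR adjusted p = 2.31e-14). ITGB2, the beta-2 integrin subunit of leukocytes, had 9, 10 and 9 against 187, 187 and 164 counts. Every ID2-labelled library was far above every GFP library in both genes, but lack of overlap was a condition for being named here. GUCY1A2, a subunit of soluble guanylate cyclase, rose from 0.463 ± 0.337 to 10.3 ± 1.03 CPM. MYL9, a myosin regulatory light chain of contractile cells, had 7, 4 and 2 counts in GFP and 85, 56 and 80 counts in the ID2-labelled libraries (log2 3.92). ROS1, a receptor tyrosine kinase, had 2, 2 and 0 against 24, 32 and 29 counts. Genes with a mean under 10 counts in GFP passed the filter of a mean of 10 or more counts only through the ID2-labelled libraries. UGT1A3, GUCY1A2, ITGB2, ROS1, MYL9, MLANA and PABPC4L were among them. Their place in this ranking is partly set by that filter. ROS1 did not differ detectably between the ID2-labelled libraries and those labelled ID1 or ID3, with log2 differences of -0.23 and 0.00 (edgeR adjusted p = 0.564 and 0.996).

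The 12 steepest falls were those of ZPLD1, ZBBX, HGF, ADGRF1, CADM1, SLC7A5, LOC389602, COL11A1, CAMK2N1, ANXA10, ARL14EP and SECTM1. ZPLD1, a zona pellucida domain protein (hg19 chr3:101818088-102198685), had 539, 441 and 371 counts in GFP and 3, 0 and 0 counts in the ID2-labelled libraries, a ratio of 496 in CPM with a counting interval of 170 to 2411. The ID1, ID3 and ID4 groups had 1, 1 and 5 counts in all. ZBBX likewise had 583, 416 and 400 counts in GFP and 5, 5 and 3 in the ID2-labelled libraries. ZPLD1, ZBBX, HGF and ADGRF1 were among the genes that passed the filter on mean counts only through the GFP libraries. ADGRF1, LOC389602, COL11A1 and ANXA10 had a mean under 50 counts over the 6 libraries. The place of such genes in this ranking is partly set by that filter. CADM1, a cell adhesion molecule, fell from 25.5 ± 0.193 to 1.79 ± 0.233 CPM. ARL14EP, a little studied effector of an ARF-like GTPase, fell from 172 ± 12.5 to 24.5 ± 0.485 CPM, and its log2 differences from ID1, ID3 and ID4 were -0.04, -0.11 and 0.02. CAMK2N1, an inhibitor of calcium/calmodulin-dependent kinase II, had 2557, 2303 and 2356 counts in GFP and 386, 369 and 307 in the ID2-labelled libraries (log2 -2.91, SE 0.12).

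Genes that supply amino acids were lower in the ID2-labelled libraries. In cells short of an amino acid, or under stress of the endoplasmic reticulum, the factor ATF4 is made and raises genes for amino acid synthesis, transport and tRNA charging. The gene lists used here and below were chosen with earlier results of these data known, and are described by counts and medians beside the median of all tested genes, -0.01. Of 20 tested ATF4 regulators and stress genes, 14 were lower and 2 higher, with a median of -0.65. ATF4 itself fell from 307 ± 16.5 to 185 ± 2.92 CPM (log2 -0.73). CHAC1, which degrades glutathione, had 62, 53 and 49 counts in GFP and 18, 16 and 17 in the ID2-labelled libraries, a log2 fold change of -1.82 (edgeR adjusted p = 4.32e-06). TRIB3, a pseudokinase, fell by 1.53 and DDIT4, an inhibitor of mTOR complex 1, by 1.29 on the log2 scale. The 2 that rose were GDF15, a stress cytokine, and CEBPB, by 0.39 and 0.29.

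ASNS, the enzyme that makes asparagine, changed the most of these enzymes, with 2158, 1937 and 1980 counts in GFP and 483, 457 and 461 in the ID2-labelled libraries. Its log2 fold change was -2.26 (SE 0.06, edgeR adjusted p = 6.10e-17), and the groups did not overlap. Of 15 tested serine, glycine and folate enzymes, 8 were lower and 1 higher (median -0.41). PHGDH and PSAT1, the entry steps of serine synthesis, fell from 71.1 ± 4.11 to 21.7 ± 2.22 CPM and from 84.4 ± 5.72 to 19.8 ± 1.03 CPM, and the 1 that rose was SHMT1 (log2 0.36). Of 18 amino acid transporters, 9 were lower and 4 higher (median -0.21). SLC7A5 and SLC3A2, the 2 chains of the large neutral amino acid transporter, fell by 3.56 and 0.87 on the log2 scale, and SLC7A11, the cystine transporter, by 2.01. The raised transporters included SLC43A2 (log2 1.81) and SLC7A8 (log2 1.45). Of 20 cytosolic aminoacyl-tRNA synthetases, which load amino acids onto tRNAs, 16 were lower and 0 higher at an adjusted p of 0.05 (median -0.37). They were led by AARS (log2 -0.91), GARS (-0.77), SARS (-0.75) and WARS (-0.72). The list of asparagine, proline and transaminase enzymes was mixed, with 5 higher and 5 lower of 14, among them GLUL, glutamine synthetase, higher by 0.92.

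The ATF4 and C/EBP proteins bind elements that hold the letters TGATGNAA. These letters were searched on both strands in the 250 bases before the RefSeq gene start (GRCh38.p14, a later build than that of the counts), for the 9392 tested genes with a promoter in the table. Promoters were matched by symbol, and genes without a match by symbol were not searched. The 5 amino acid lists held 14, 8, 5, 9 and 16 lowered genes, so many of the lowered genes were not searched. The letters were present in 7 of the 55 searched promoters of tested genes of these lists (12.7%) and in 3 of the 28 searched promoters of lowered genes (10.7%). They were present in 1.37% of the promoters of all tested genes and in 3.19% of all 27305 promoters of the table. The 3 lowered genes with a match were ASNS, CHAC1 and GOT1, a cytosolic aspartate transaminase with a log2 fold change of -0.31, and they are shown because they let the element be seen beside the change; GOT1 was named for its match after its values were seen. The sequences read 5′ to 3′ on the strand of the gene and end at the base before its start, and capitals mark the match. The match begins 68, 209 and 198 bases before the start of ASNS, CHAC1 and GOT1. A match is a description of the letters and not a bound site.
ASNS, chr7:97872409-97872658, minus strand: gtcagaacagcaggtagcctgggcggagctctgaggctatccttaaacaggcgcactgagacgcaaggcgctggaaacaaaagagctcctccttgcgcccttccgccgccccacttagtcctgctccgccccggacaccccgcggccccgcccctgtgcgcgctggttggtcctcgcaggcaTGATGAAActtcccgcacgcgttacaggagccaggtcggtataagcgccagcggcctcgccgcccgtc
CHAC1, chr15:40953221-40953470, plus strand: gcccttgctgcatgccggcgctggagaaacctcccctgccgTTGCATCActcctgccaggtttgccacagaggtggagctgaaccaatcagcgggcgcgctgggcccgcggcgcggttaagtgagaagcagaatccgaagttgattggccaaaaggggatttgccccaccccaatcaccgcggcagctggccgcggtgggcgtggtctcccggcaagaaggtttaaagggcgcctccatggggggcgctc
GOT1, chr10:99430625-99430874, minus strand: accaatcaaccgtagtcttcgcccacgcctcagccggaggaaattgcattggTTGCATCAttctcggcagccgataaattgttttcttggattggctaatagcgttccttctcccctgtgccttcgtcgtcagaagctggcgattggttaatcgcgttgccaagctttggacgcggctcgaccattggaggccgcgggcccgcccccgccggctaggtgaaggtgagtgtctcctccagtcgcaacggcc

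E proteins bind E-boxes, CANNTG, so these were counted in the same windows. CANNTG was present in 52.5% of the promoters of genes higher in the ID2-labelled libraries, in 54.0% of those lower and in 53.1% of all tested. The forms CAGCTG and CAGGTG were present in 14.4% and 13.7% of the higher, 11.7% and 14.5% of the lower and 12.5% and 14.9% of all tested promoters. For the genes particular to the ID2 label, CANNTG was present in 48.3% of the 290 higher and 60.1% of the 233 lower genes with a promoter in the table.

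Genes of the extracellular matrix and of the contractile cytoskeleton were higher in the ID2-labelled libraries. Of 28 collagens, laminins and related matrix genes, 16 were higher and 3 lower (median 0.45). FN1, fibronectin, had 87632, 75749 and 69501 counts in GFP and 181100, 198789 and 216895 in the ID2-labelled libraries, a log2 fold change of 1.22 (SE 0.06, edgeR adjusted p = 1.87e-12). COL5A2 rose by 1.24, LAMB3 by 1.12 and COL3A1, from a low level, by 2.66. COL13A1, a transmembrane collagen, went the other way, from 77.4 ± 3.22 to 13.7 ± 0.143 CPM (log2 -2.49). Of 29 actin cytoskeleton genes and targets of the serum response factor, 22 were higher and 1 lower (median 0.43). CNN1, calponin of smooth muscle, had 113, 68 and 47 counts in GFP and 841, 957 and 966 in the ID2-labelled libraries (log2 3.46), and ACTA2, smooth muscle actin, rose by 1.61.

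Adhesion and matrix remodelling genes changed in both directions. Of 18 integrins, cadherins and CADM genes, 11 were higher and 5 lower (median 0.34), including ITGA1 (log2 1.21), ITGB5 (0.98) and ITGAV (0.57) higher and ITGA2 (-1.24) lower. Of 21 metalloproteinases and inhibitors, 11 were higher and 3 lower (median 0.32). MMP3, stromelysin 1, rose from 10.6 ± 0.803 to 70.8 ± 9.78 CPM and MMP16, a membrane-bound metalloproteinase, fell from 72.3 ± 8.27 to 34.5 ± 0.846 CPM. Of 15 TGF-beta targets, 9 were higher and 1 lower (median 0.42). TGFBI, a matrix protein, rose by 1.04 on the log2 scale. PLAU, urokinase, was 32.5 ± 7.23 CPM in GFP and 87.9 ± 32.5 CPM in the ID2-labelled libraries (log2 1.43), with library 3 at 724 counts beside 1358 and 1607. Without that library its log2 fold change was 1.71. Among 10 plasminogen activators and serpins, 3 were higher and 2 lower (median -0.04), and among 21 YAP and TAZ targets 7 were higher and 4 lower (median 0.18). The called shares of these lists were 50% and 52.4%, beside 35.6% of all tested genes.

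Genes of DNA replication and cell division were lower. Of 30 replication genes, 19 were lower and 1 higher (median -0.28), and of 30 mitotic genes 16 were lower and 1 higher (median -0.24). GINS2, part of the replicative helicase, fell from 35.2 ± 3.24 to 21.1 ± 1.67 CPM (log2 -0.74) and FEN1, the flap endonuclease, by 0.60 on the log2 scale. CDK1, the kinase that drives mitosis, had 2503, 2015 and 2010 counts in GFP and 1668, 1822 and 1711 in the ID2-labelled libraries (log2 -0.47). The 9 tested CDK inhibitors and D cyclins split into 3 higher and 4 lower, with CCND3 (0.33) and CDKN1A (0.27) higher and CCND1 (-0.18) lower, and without ID2 library 3 these were 3 and 2. Of 19 p53 targets, 8 were higher and 1 lower (median 0.21, or 0.11 without ID2 library 3), among them FAS (log2 0.60). Of 76 cytosolic ribosomal proteins, 40 were lower and 5 higher (median -0.14), with RPS12 (-0.54) and RPL13 (-0.53) the lowest.

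Most targets of the hypoxia response were lower. Of 21 hypoxia targets, 13 were lower and 4 higher (median -0.35). NDRG1 had 28690, 24788 and 25359 counts in GFP and 9232, 9472 and 9537 in the ID2-labelled libraries (log2 -1.62, SE 0.04), and VEGFA, the angiogenic growth factor, fell by 1.21. CA9, a membrane carbonic anhydrase, had 3374, 2297 and 3017 against 1848, 2044 and 839 counts, a log2 fold change of -1.01 that was -0.71 without ID2 library 3. LOX and P4HA2, which modify collagen, rose by 1.14 and 0.96. Of 19 glycolytic enzymes, 4 were higher and 5 lower (median 0.00), and without ID2 library 3 these were 5 and 8. Of 76 respiratory chain genes, 17 were higher and 13 lower (median 0.03), but 9 and 9 in the fit on the 6 libraries alone. The called share of the respiratory chain genes, 39.5%, was near the 35.6% of all tested genes. That of the glycolytic enzymes was 47.4%. Among all tested genes 18.5% were higher and 17.1% lower.

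Genes of IL1 and chemokine signalling and of ERK feedback were more often lower than higher. Of 19 genes of IL1, chemokines and NF-kB feedback, 10 were lower and 4 higher (median -0.37). IL1B, interleukin 1 beta, had 402, 277 and 292 counts in GFP and 102, 128 and 111 in the ID2-labelled libraries (log2 -1.64), while its receptor antagonist IL1RN rose from 1.78 ± 0.401 to 8.73 ± 1.09 CPM (log2 2.30). CXCL8 fell by 1.21, or by 0.83 without ID2 library 3, which held 37 counts beside 115 and 118. Of 18 genes in the ERK feedback list, 9 were lower and 1 higher (median -0.35), with PHLDA1 (-1.13) and SPRY2 (-0.99) lower and SPRED1 (0.34) higher. The list holds outputs of ERK signalling as well as genes that dampen it. Of 20 AP-1 and immediate early genes 6 were lower and 2 higher, a called share of 40% beside 35.6% of all tested genes. Of 27 interferon-stimulated genes 5 were lower and 3 higher, a called share of 29.6%, below the 35.6% of all tested genes. The interferon median was -0.16, and -0.07 without ID2 library 3.

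Genes of the secretory and lysosomal systems were more often higher than lower. Of 27 lysosomal and autophagy genes, 20 were higher and 1 lower (median 0.27), with GPNMB (log2 1.10), GABARAPL1 (0.78) and CTSK (0.57) higher and CTSL (-0.71) lower. Of 21 genes of the unfolded protein response of the endoplasmic reticulum, 12 were higher and 4 lower (median 0.25). CRELD2, induced when this compartment is stressed, rose from 42.9 ± 3.23 to 69.02 ± 4.45 CPM and HSP90B1, its HSP90 chaperone, from 675 ± 4.78 to 971 ± 15.5 CPM. HERPUD1 and SEC61B fell by 0.30 and 0.29. Of 20 heat shock proteins 3 were higher and 3 lower, or 5 and 3 without ID2 library 3, with CRYAB, a small heat shock protein, at 13, 15 and 24 counts against 161, 162 and 179. The called share of this list was 30%, beside 35.6% of all tested genes. The 18 tested genes of MHC class I and antigen processing held 5 higher and 4 lower, and the 24 NRF2 antioxidant genes 7 higher and 8 lower. Their called shares were 50% and 62.5%, beside the same 35.6%. Of 8 metallothioneins, MT1M (1.07), MT1F (0.81) and MT1X (0.40) were higher and MT2A (-0.67) and MT1E (-0.20) lower. These family members share much of their sequence, so reads may be split between them.

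Signalling and identity genes were mixed. Of 12 tested glioma stemness and glial genes, 3 were higher and 5 lower (median -0.13, or -0.04 without ID2 library 3). SOX9, a factor of neural progenitors, had 307, 247 and 274 counts in GFP and 60, 52 and 39 in the ID2-labelled libraries (log2 -2.59), and ALDH1A3 fell by 1.56. In the Wnt list, 7 of 18 were higher and 3 lower. WNT5B had 205, 160 and 162 counts in GFP and 1214, 1204 and 1013 in the ID2-labelled libraries (log2 2.56), and the Wnt receptor FZD8 fell by 1.59. Among 13 Notch genes 3 were higher and 3 lower, with LFNG, which adds sugars to Notch, up by 2.42 and MFNG, its relative, down by 2.11. Of 19 BMP and SMAD genes 7 were higher and 3 lower, with SMAD6 (1.00) and GREM1 (0.74) higher and BAMBI (-1.71) lower, all of which are inhibitors of the pathway. In the list of HES, HEY and other bHLH factors, 5 of 14 were higher and 3 lower, and without ID2 library 3 these were 5 and 1. HEY1 (log2 0.78), TWIST1 (0.74) and BHLHE41 (0.74) rose. In the IL6, JAK and STAT3 list 2 of 20 were higher and 2 lower, or 2 and 1 without ID2 library 3, with JAK1 higher (0.37) and STAT3 lower (-0.25). The called share of this list, 20%, was below the 35.6% of all tested genes. Of 17 receptor tyrosine kinases 6 were higher and 3 lower, with EPHB4 (1.78) higher and PDGFRA (-2.11) lower. All 7 tested genes of the IGF binding protein list were called, 4 higher and 3 lower, with IGFBP1 (-2.72) and IGFBP4 (-1.69) falling. Of 12 aldehyde dehydrogenases 6 were higher and 2 lower, led by ALDH4A1 (1.99), and these were 6 and 1 without ID2 library 3 and 4 and 1 without GFP library 3. Of 24 cholesterol and 16 fatty acid synthesis genes, 6 and 5 were higher and 1 and 1 lower, with HMGCS1 (0.42) and FASN (0.47) higher. The called shares of these lists were 29.2% and 37.5%, beside 35.6% of all tested genes. Those of the Wnt, Notch, BMP and SMAD, and bHLH lists were 55.6%, 46.2%, 52.6% and 57.1%. Those of the stemness, receptor tyrosine kinase and aldehyde dehydrogenase lists were 66.7%, 52.9% and 66.7%. Among all tested genes 18.5% were higher and 17.1% lower.

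**Figure D4:**
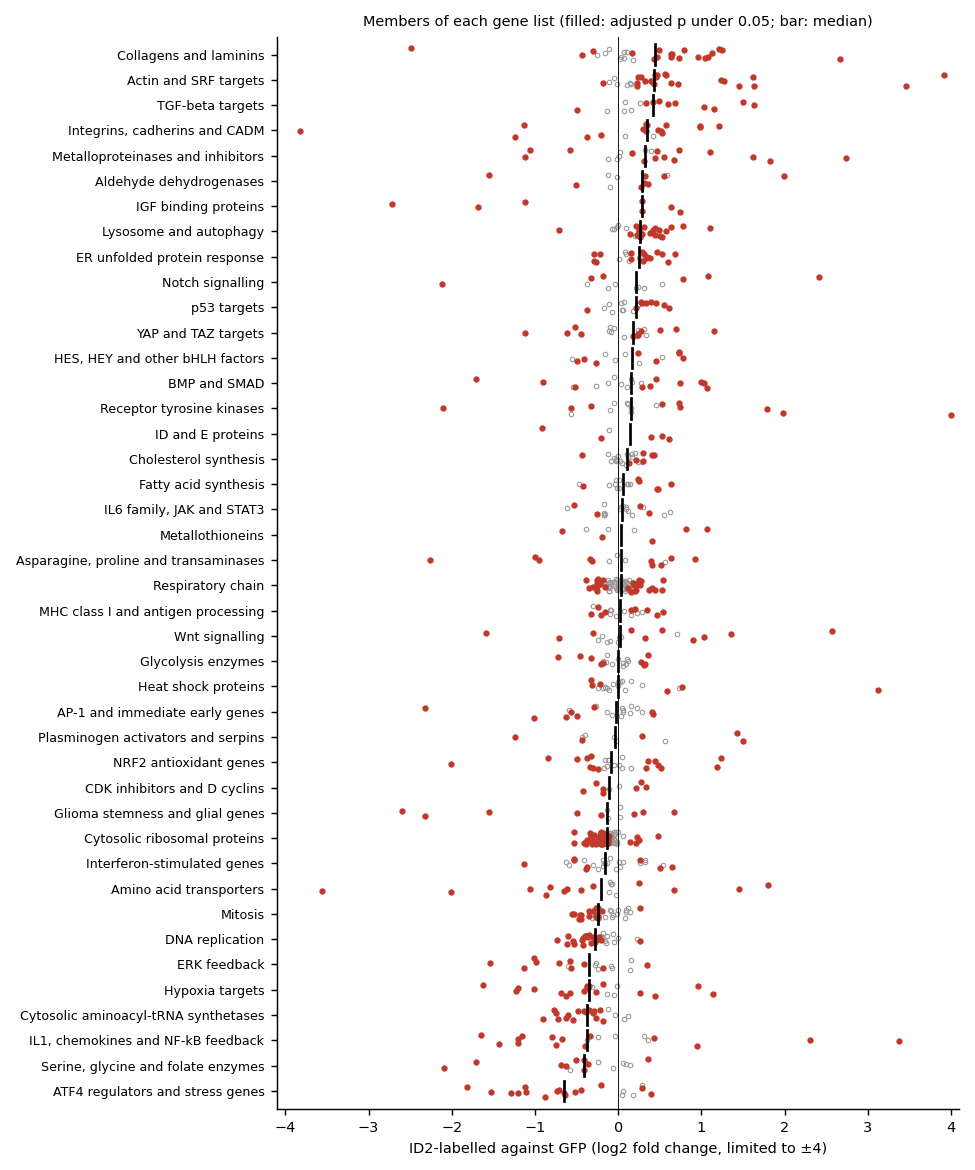
Log2 fold change of ID2-labelled against GFP libraries for the tested members of 42 gene lists, ordered by the median (black bar); filled points were called at an adjusted p of 0.05, and values beyond 4 are drawn at 4. The medians run from -0.65 for ATF4 regulators and stress genes to 0.45 for collagens and laminins.

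To ask which differences belonged to the ID2 label and not to the others, each gene was also tested between the ID2-labelled libraries and each other ID group. The ID2-labelled libraries differed from the ID1-labelled in 2411 genes (18.9%; 9.94% higher, 8.99% lower), from the ID3-labelled in 1936 (15.2%; 7.33% and 7.88%) and from the ID4-labelled in 2378 (18.7%; 9.39% and 9.28%). Without ID2 library 3 the difference from ID3 was called for 2368 genes. A gene was taken as particular to the ID2 label when it passed against GFP, ID1, ID3 and ID4, all in the same direction. This held for 681 genes (5.35%), 375 higher (2.95%) and 306 lower (2.4%). In 629 of them all 3 ID2-labelled libraries lay outside all 12 others, beside 9.14% of all tested genes. The 681 genes were chosen by tests on these same libraries, so this separation follows largely from the choice and adds no support. For 39 of the 681 (0.306% of tested genes) the difference was more than 1 log2 unit in every one of the 4 contrasts, with 26 higher (0.204%) and 13 lower (0.102%). Without ID2 library 3 the count was 706, of which 518 were among the 681.

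RAD50, part of the complex that senses DNA double-strand breaks, stood out among abundant genes. It had 827, 776 and 785 counts in GFP, 6838, 6872 and 7630 in the ID2-labelled libraries, and between 616 and 1027 in the 9 libraries of the other ID groups. The level rose from 62.97 ± 4.53 to 508 ± 28.9 CPM, with log2 differences of 3.01 from GFP, 2.99 from ID1, 3.22 from ID3 and 3.01 from ID4 (SE 0.08 and edgeR adjusted p = 1.77e-17 against GFP). RAD50 lies at hg19 chr5:131891711-131982041 on the plus strand. TH2LCRR, a non-coding gene on the minus strand whose span (131966281 to 131999964) overlaps it, had 21, 25 and 13 counts in GFP and 105, 133 and 107 in the ID2-labelled libraries. Whether counting used strand is not stated, so reads of the pair cannot be told apart. Among tested neighbours, KIF3A, whose start lies 137 kb from that of RAD50, was not called (log2 0.12, edgeR adjusted p = 0.291), IRF1 was lower (-0.53), and P4HA2 (0.96) and SHROOM1 (0.33) were higher.

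Of the 10 higher genes most particular to the ID2 label, the other 9 were less abundant than RAD50. MLANA, a melanosome protein, had 1, 4 and 0 counts in GFP and 41, 56 and 61 in the ID2-labelled libraries, with at most 8 in any other library. PABPC4L, a relative of poly(A)-binding protein, had 20, 34 and 13 counts in the ID2-labelled libraries and 3 in all GFP libraries together, a ratio of 20.3 with a counting interval of 6.64 to 101. Among the genes that passed the filter on mean counts only through the ID2-labelled libraries were MLANA, PABPC4L, UGT1A3 and TP73. The rank of such genes here partly reflects that filter. UGT1A3, a glucuronosyltransferase, had 104, 102 and 28 counts against 5, 1 and 0. Library 3 was the lowest by far, and the UGT1A genes share their last exons, so the reads cannot be assigned to one of them. TP73, a p53 family factor, had 40, 51 and 69 counts against 9, 5 and 3. CCL26 (eotaxin 3), HSPB3 (a small heat shock protein of muscle) and APLP1 (a relative of the amyloid precursor protein) rose by 2.21, 3.61 and 3.54 against GFP, and each was higher by 1.28 or more on the log2 scale than every other ID group. ITGB2, GUCY1A2, ICAM5, ZNF268 and GALNT9, named above, were particular as well.

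Among the lowered particular genes, HGF, the ligand of the MET receptor (hg19 chr7:81328326-81399754), had 37, 29 and 21 counts in GFP and 0, 1 and 0 in the ID2-labelled libraries. The ratio of GFP to ID2-labelled was 95.9 with a counting interval of 16.8 to 3831. The other ID groups had 36, 14 and 10 counts in all for ID1, ID3 and ID4. HGF and SERTAD4 were among the genes here that passed the filter on mean counts only through the GFP libraries. SERTAD4 had 9, 5 and 9 counts in the ID2-labelled libraries against 19, 36 and 20 in GFP. SLCO4A1, an organic anion transporter, had 9, 13 and 15 against 68, 75 and 60, and GYPC, a glycophorin, 8, 22 and 14 against 88, 58 and 43. EDNRA, an endothelin receptor, ZNF518A, LYN, a SRC family kinase, RAB3IL1, UXT-AS1 and LOC283352 completed the 10, with log2 fold changes against GFP of -1.90, -1.79, -1.62, -1.27, -1.73 and -1.13.

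**Figure D5:**
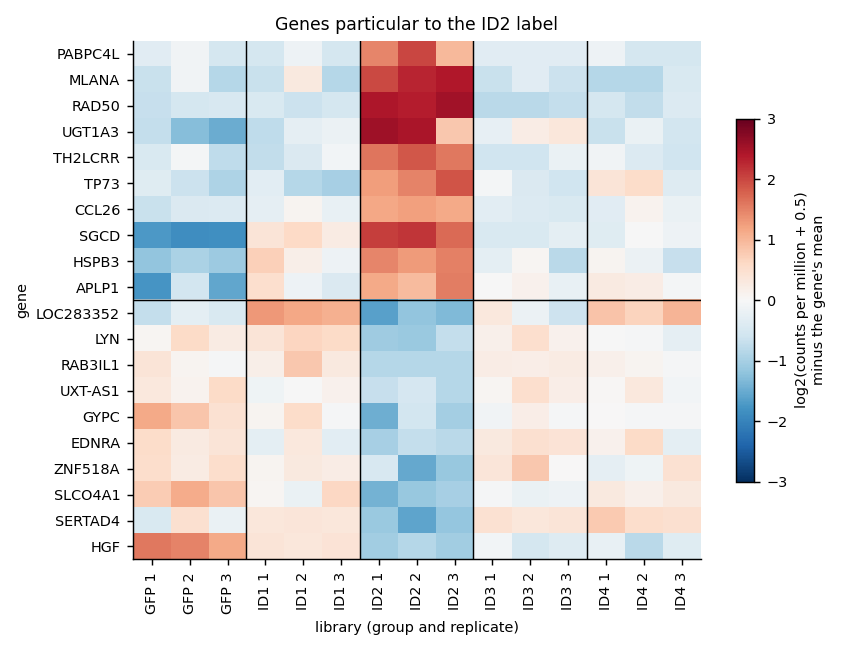
Level of the 10 higher and 10 lower genes most particular to the ID2 label in each of 15 libraries, as log2 of CPM plus 0.5 minus the mean of the gene over all libraries. The 3 ID2-labelled columns are the reddest for the 10 upper genes and the bluest for the 10 lower genes, and the UGT1A3 cell of ID2 library 3 is paler than those of libraries 1 and 2.

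Of the 20 tested ATF4 regulators and stress genes 0 were particular by the edgeR tests, beside 5.35% of all tested genes, and their medians against ID1, ID3 and ID4 were -0.13, -0.11 and -0.06. Of the serine, glycine and folate enzymes 1 was particular and higher, SHMT1, and 2 were particular and lower, PHGDH and PSAT1. The asparagine, proline and transaminase list held 2 higher, PYCR1 and ASL, and 2 lower, GPT2 and GOT2, the transporters 2 lower, SLC7A5 and SLC7A6, and the synthetases 1 lower, IARS. The log2 differences of PHGDH from ID1, ID3 and ID4 were -0.52, -0.49 and -0.67. In the unfolded protein response list 7 of 21 were particular and higher (CRELD2, PDIA4, HSP90B1, HYOU1, SEL1L, SDF2L1 and CALR) and SEC61B was particular and lower. The log2 differences of CRELD2 from ID1, ID3 and ID4 were 0.53, 0.49 and 0.54. In the actin list 5 of 29 were particular and higher, ACTB, VCL, CALD1, TPM4 and CNN2, but CNN1 and ACTA2 were not. The medians of the hypoxia list against ID1, ID3 and ID4 were 0.06, -0.10 and 0.06, beside -0.35 against GFP. For collagens and laminins they were 0.22, 0.01 and 0.10, beside 0.45. For TGF-beta targets they were 0.12, -0.04 and 0.12, beside 0.42. For lysosomal and autophagy genes they were 0.15, -0.002 and 0.21, beside 0.27. WNT5B, LFNG, JAG1, TGFBI and ITGA1 were particular and higher, and SOX9, COL13A1, CAMK2N1, PHLDA1, SPRY2 and IGFBP1 particular and lower. GPT2, GOT2, SLC7A6, IARS, HYOU1, SEL1L, SDF2L1, ACTB, VCL, CALD1, TPM4 and CNN2 were named after their values were seen.

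The lowered particular genes were unevenly placed along the genome. A position on hg19 was found for 11636 of the tested genes. On chromosome 9, 58 of 335 tested genes that start beyond 50 Mb were particular and lower (17.3%), against 248 of the 12397 other tested genes (2.0%), and 1, SLC25A25, was particular and higher. Of the 117 tested genes that start below 50 Mb, 0 were particular and lower and 6 were particular and higher. The median log2 difference of the genes beyond 50 Mb was -0.19 from GFP, -0.21 from ID1, -0.19 from ID3 and -0.19 from ID4, and the genes below 50 Mb had medians of 0.05, -0.02, 0.05 and -0.02. By library, the median distance of the genes beyond 50 Mb from the mean of all 15 libraries was -0.15, -0.15 and -0.13 in the ID2-labelled libraries and between 0.03 and 0.06 in the other 12. Without ID2 library 3 the median difference from GFP was -0.18. Of these 335 genes, 135 were called lower and 22 higher against GFP, and 85.4% had a log2 difference below 0 from the mean of the other ID groups. The boundary of 50 Mb was chosen after the values were seen, and no test was made. Members of lists that lie in this stretch and were particular and lower were PSAT1, TXN, SEC61B, NDUFA8, RPL35 and RPL7A, and the part of the regional shift in their values was not tested.

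Chromosomes 4, 8, 10, 12, 15 and 21 also had medians more than 0.1 log2 units from 0 against GFP. Chromosomes 15 and 12 had medians of 0.25 and 0.19 in the ID2-labelled libraries against GFP, with 163 of 386 and 247 of 627 genes higher, while their medians against ID1, ID3 and ID4 lay between -0.11 and 0.02. Chromosome 4 had a median of -0.14 against GFP, -0.17 against ID1, -0.18 against ID3 and -0.04 against ID4. Chromosome 10 had a median of -0.16 against GFP with 48 genes higher and 159 lower of 461, chromosome 8 one of -0.14 with 46 and 133 of 411, and chromosome 21 one of -0.11 with 18 and 32 of 105, and their medians against the other ID groups lay between -0.10 and 0.00. The parts of these shifts in single genes on them, such as ALDH1A3 on chromosome 15 or PDGFRA and CXCL8 on chromosome 4, were not tested.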

How the data were processed

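Total RNA of U87MG cells was made into 3′ mRNA libraries with the Lexogen QuantSeq kit by the sequencing provider, per the labels. The authors deposited 1 table with raw counts per gene for 15 libraries and, beside them, normalized log2 values. Counts were used for all main results; the deposited log2 values served 2 alternatives. The submitters' processing notes name Bowtie2 and BWA and the build hg19, with no version or role; the counting tool and strand setting are not given in the sources used here.

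Groups followed the sample titles. The members, gene lists and rules were chosen with earlier results of these data known. Genes with a mean of 10 or more counts over the 6 ID2 and GFP libraries were tested with edgeR 4.0.16 (limma 3.58.1, R 4.3.3), TMM scaling and 1 mean per group over all 15 libraries (10 residual degrees of freedom); SE is the fold change divided by the root of the F statistic. The Benjamini-Hochberg threshold was 0.05. Symbols listed more than once (286) were kept as separate entries. Positions came from GENCODE release 44 lifted to GRCh37, matched by symbol. Ratios of low counts carry exact binomial intervals, which cover counting error only. Named genes were the ID genes, the 12 steepest rises and 12 steepest falls without overlap, the 10 higher and 10 lower particular genes whose least difference from any group was widest, and up to 4 plus 2 genes a list. The steps were tested on simulated counts. Alternatives were RLE factors, other filters, DESeq2 1.42.0, limma voom, library weights, a replicate block, leaving out libraries, and a fold rule. Some items are not reported here.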

Additional observations from a re-analysis of the deposited data

Results flagged for a closer look

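The effect of the ID2 label relative to those of the ID1, ID3 and ID4 labels differed for 681 genes, by edgeR tests of the ID2-labelled against each other ID group beside GFP. Groups of 3 libraries were not tested for outlying libraries.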

How the results depend on the processing

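The ID2 against GFP count of 4535 stayed between 3668 and 4656 with other normalizations, filters and tools or the 6 libraries alone, and the particular count of 681 between 639 and 764. Leaving out single libraries gave 3931 to 4421 and 525 to 706 genes, 1697 to 2442 against ID1, 1360 to 2368 against ID3 and 1682 to 2427 against ID4. A change over 1 log2 unit left 561 genes, and 39 particular ones. The fold and p rule of the study's methods on deposited log2 values called 834, and testing against the mean of the other ID groups in place of each gave 1931. These rules differ by construction. The SD of ID2 library 3 was 0.285 in genes with 50 or more counts and 0.376 after thinning to the smallest total. Same-numbered ID2 and GFP libraries had deviations correlated at 0.01, -0.13 and -0.15, so the numbers were not taken as pairing them, and with a replicate block 4368 and 613 genes were called. For 41 genes (ID1, ID3 and those with the steepest or most particular changes) all 590 recomputed values kept their direction and call, and other genes named from the lists were not recomputed under every alternative. Apart from ID1 and ID3 these genes were chosen for wide differences in these data, so such stability was likely and does not extend to smaller changes. Of the list counts 7 moved by over 1.5 times and 623 did not. Totals of 11949100 to 14454067 counts put 3 counts at 0.208 to 0.251 CPM, which limits statements on scarce genes.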
